A study of Homo sapiens with 6 samples.

Results

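The serpins are a superfamily of proteins named for serine protease inhibitors, and their RNA levels were described in 6 samples of the human bladder cancer cell line RT4 and lines derived from it. Members were chosen as probes whose gene name in the deposited array table is SERPIN followed by a clade letter from A to I and a number. The serpins described here are 35 genes, with 49 probes of 47322 on the array. A probe was called detected where its detection p-value, which compares its signal with negative control beads, was under 0.01. Of the 35 genes, 14 were detected on at least 1 of the 6 arrays, through 15 probes, and 21 were not.

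An inhibitory serpin presents an exposed loop that its target protease cuts. The serpin then snaps into a more stable fold and traps the protease in a covalent complex, so each molecule works once. Clades are groups of related sequence: most clade A, C, D, E, F, G and I members are secreted, clade B members lack a classical signal peptide and act mainly inside cells, and clade H is a collagen chaperone of the endoplasmic reticulum. In bladder and other epithelia, serpins control urokinase and plasmin outside the cell and cathepsins and granule proteases inside it.

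Each sample was hybridised to 1 Illumina HumanHT-12 version 4 array. RT4P, the parental line from ATCC, gave 3 samples: untreated live cells, blebbishields and spheres. Blebbishields were taken after treatment with cisplatin (1 uM) and lithium chloride (20 mM) for 24 h. Blebbishields are the bodies that remain after apoptosis and can fuse into spheres. The blebbishield sample mixed sphere-forming and other blebbishields, and the sphere sample had the same treatment, then 4 h of transformation and purification. The other 3 samples were untreated live lines. RT4P-BSE2 had passed 2 times in series through the blebbishield program, RT4v6 had passed 6 times through mice, and PBSHMS came from fusing RT4 blebbishields with human blood mononuclear cells. With a single sample on 1 array in every group, differences could not be set against replicates and carry no p-value. The series asks how RNA levels differ along the blebbishield program and between lines of differing tumorigenicity.

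The blebbishield array was the dimmest, with a mean signal of 263.2 and 31.2% of probes detected, against mean signals of 349.5 to 389.2 and 33.4% to 37.2% of probes on the other 5. All 13 urothelial and epithelial marker genes were detected on all 6 arrays, among them UPK2, KRT7 and GATA3. None of 7 fibroblast markers was detected on any array. Of 13 leukocyte markers, 9 were detected on no array, including the pan-leukocyte gene PTPRC. HCLS1, a signalling adaptor known from blood cells, was detected on all 6, at a normalized log2 intensity of 10.11 in RT4P live cells, 7.32 in blebbishields, 7.33 in spheres and 9.12 in PBSHMS. Levels below are normalized log2 intensities, comparable for 1 probe across arrays but not between probes. Differences are group minus reference on the same scale, read at 2-fold or more. Where a gene was detected on 1 array of a pair, its value on the other was raised to the lowest detected level there, and the fold is a lower bound, written "at least". As a gauge of spread in place of replicates, a probe SD was taken from the gap between 2 probes of 1 gene, and it ran from 0.26 for RT4P-BSE2 against RT4P live cells to 0.49 for blebbishields against them.

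Clade B, the largest clade on the array, had the most detected members, 6 of 13 genes: SERPINB1, SERPINB5, SERPINB6, SERPINB7, SERPINB8 and SERPINB13. Clade A, the antitrypsin group of liver and plasma, had 3 of 12: SERPINA1, SERPINA3 and SERPINA10. The remaining clades gave SERPIND1, SERPINE2, SERPINF1, SERPINH1 and SERPINI1, so that 8 of 22 genes outside clade B were detected. No probe of SERPINC1 (antithrombin) or SERPING1 (the C1 inhibitor) was detected. By array, 10 of these serpin genes were detected in RT4P live cells, 8 in blebbishields, 13 in spheres, 12 in RT4P-BSE2, 8 in RT4v6 and 8 in PBSHMS. Spheres thus had the most and were the array with the most probes detected overall.

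Some genes lay close to the detection threshold. SERPINB7 and SERPINA3 were detected on the sphere array alone, each at a detection p-value of 0.0013, with signals of 129.5 and 146.5. In PBSHMS SERPINB7 narrowly missed the threshold, at a detection p-value of 0.0104 and a signal of 116.5. Other near misses were SERPINB13 in PBSHMS, at 0.0130, and SERPINB1 in blebbishields, at 0.0169. SERPINF1 in RT4P live cells and SERPINI1 in PBSHMS both stood at 0.0195. SERPINA1, alpha-1-antitrypsin, was detected on the RT4P-BSE2 array alone, at 0.0026 and a signal of 121.7, through 1 of its 4 probes. Just outside the threshold stood SERPINB9, the granzyme B inhibitor, whose lowest detection p-value was 0.0143, then SERPING1 at 0.0208, SERPINA5 at 0.0234, SERPINA2 at 0.0377 and SERPINB3 at 0.0403. The 28 probes of undetected serpins had a median signal of 86.8 on the blebbishield array and of 91.6 to 100.3 on the other 5. SERPINB2, SERPINB3 and SERPINB4, squamous and inflammatory clade B genes, were among the undetected ones, so nothing can be said of their change at this sensitivity.

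Clade B genes lie in a cluster of 10 on chromosome 18, from SERPINB5 at one end to SERPINB8 at the other, and in a group of 3 on chromosome 6. In the cluster 4 of 10 were detected, and on chromosome 6 SERPINB1 and SERPINB6 were detected. Promoter windows, from 250 bases before a RefSeq start site to 50 after it (build GRCh38.p14), were held for 13 of the 14 detected serpins, 22 windows in all. The windows below, 1 for each gene and printed 5' to 3' along the gene, show 3 detected genes of the chromosome 18 cluster, 1 gene of the chromosome 6 group and, from outside clade B, the collagen chaperone gene. Capitals mark matches to 4 motifs: AP-1 (TGANTCA), the antioxidant response core (TGACNNNGC) and the heat shock element (GAANNTTC) on both strands, and TATAAA on the gene's strand.
SERPINB5 (chr18:63476708-63477007, plus strand): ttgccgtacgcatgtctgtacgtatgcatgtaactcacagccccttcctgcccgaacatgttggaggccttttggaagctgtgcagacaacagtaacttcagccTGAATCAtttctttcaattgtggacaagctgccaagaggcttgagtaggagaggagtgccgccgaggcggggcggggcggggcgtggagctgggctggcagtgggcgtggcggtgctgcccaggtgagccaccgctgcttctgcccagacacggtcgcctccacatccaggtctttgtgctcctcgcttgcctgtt
SERPINB13 (chr18:63587093-63587392, plus strand): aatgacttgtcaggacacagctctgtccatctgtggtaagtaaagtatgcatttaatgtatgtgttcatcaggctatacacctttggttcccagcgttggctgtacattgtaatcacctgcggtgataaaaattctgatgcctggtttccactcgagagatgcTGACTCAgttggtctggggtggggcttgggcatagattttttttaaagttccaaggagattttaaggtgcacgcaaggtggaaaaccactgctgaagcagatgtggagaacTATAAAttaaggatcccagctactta
SERPINB8 (chr18:63969831-63970130, plus strand): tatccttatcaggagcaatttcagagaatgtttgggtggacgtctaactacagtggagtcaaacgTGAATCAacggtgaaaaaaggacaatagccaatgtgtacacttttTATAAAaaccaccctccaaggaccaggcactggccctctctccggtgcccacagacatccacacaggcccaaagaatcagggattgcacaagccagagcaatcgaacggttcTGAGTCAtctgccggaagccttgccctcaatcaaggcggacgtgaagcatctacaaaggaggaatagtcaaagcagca
SERPINB1 (chr6:2841814-2842113, minus strand): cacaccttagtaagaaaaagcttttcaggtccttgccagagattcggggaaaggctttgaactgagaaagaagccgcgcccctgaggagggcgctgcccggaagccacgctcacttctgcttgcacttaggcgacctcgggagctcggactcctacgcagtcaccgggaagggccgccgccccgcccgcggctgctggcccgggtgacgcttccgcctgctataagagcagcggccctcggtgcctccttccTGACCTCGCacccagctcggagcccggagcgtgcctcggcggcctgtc
SERPINH1 (chr11:75562003-75562302, plus strand): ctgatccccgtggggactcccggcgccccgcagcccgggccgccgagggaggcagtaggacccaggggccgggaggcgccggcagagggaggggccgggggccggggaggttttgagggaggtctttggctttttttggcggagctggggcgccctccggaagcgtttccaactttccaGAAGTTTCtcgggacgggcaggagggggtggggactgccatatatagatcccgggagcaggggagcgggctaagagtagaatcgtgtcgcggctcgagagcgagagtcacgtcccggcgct

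The 3 windows from the chromosome 18 cluster each carry AP-1 letters, at position -146 from the start in SERPINB5, -87 in SERPINB13, and -185 and -28 in SERPINB8. Over all detected serpins, AP-1 letters occur in 5 of 22 windows, which belong to those 3 genes and SERPINB7, and in 7.7% of the 35116 windows of all genes. The antioxidant core stands 3 bases into the SERPINB1 transcript and is in 3 of 22 serpin windows against 13.3% of all. A heat shock element stands at -71 in SERPINH1, a gene known to be induced by heat shock, and is in 4 of 22 serpin windows against 6.8% of all, 2 of the 4 being overlapping SERPINA10 windows that hold the same site. No printed motif overlaps another, and a match describes letters, not binding.

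SERPINE2, protease nexin 1, which inhibits thrombin, urokinase and plasmin, was close to level across the arrays after quantile scaling. Its level was 11.73 in RT4P live cells, 11.83 in blebbishields, 11.75 in spheres, 11.98 in RT4P-BSE2, 11.43 in RT4v6 and 11.49 in PBSHMS. These values span 0.56 in all, the narrowest range among the detected serpins. Against RT4P live cells the SERPINE2 difference in blebbishields was 0.10, but -0.47 with array medians equalised and -0.61 without scaling. The gene of one of its targets, PLAU, which encodes urokinase, had levels of 10.90 in RT4P live cells, 11.10 in blebbishields, 11.11 in spheres, 10.77 in RT4P-BSE2, 11.50 in RT4v6 and 10.89 in PBSHMS. Of 9 plasminogen activation genes, 8 were on the array and 3 were detected: PLAU, its receptor gene PLAUR and the coagulation factor gene F12. None of the 3 differed 2-fold in any of the 6 comparisons under the main settings. Of 9 other processing settings, 2 took PLAUR past 2-fold in blebbishields against RT4P live cells, to as low as -1.16. In spheres against blebbishields PLAUR passed it in 1, at 1.04, and F12 in 2, up to 1.44. PLAT, which encodes the tissue activator, was detected on no array. SERPINI1, neuroserpin, an inhibitor of that activator, had levels of 5.69 in RT4P live cells, 5.24 in spheres, 6.05 in RT4P-BSE2 and 6.41 in RT4v6, and was not detected in blebbishields or PBSHMS. It was 1.37-fold lower in spheres, 1.28-fold higher in RT4P-BSE2 and 1.64-fold higher in RT4v6 than in RT4P live cells. Only lower bounds, of 1.17-fold in blebbishields and 1.35-fold in PBSHMS, are known for the arrays where it was not detected. A second probe of SERPINI1 was detected on no array, with a lowest detection p-value of 0.277.

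**Figure D1:**
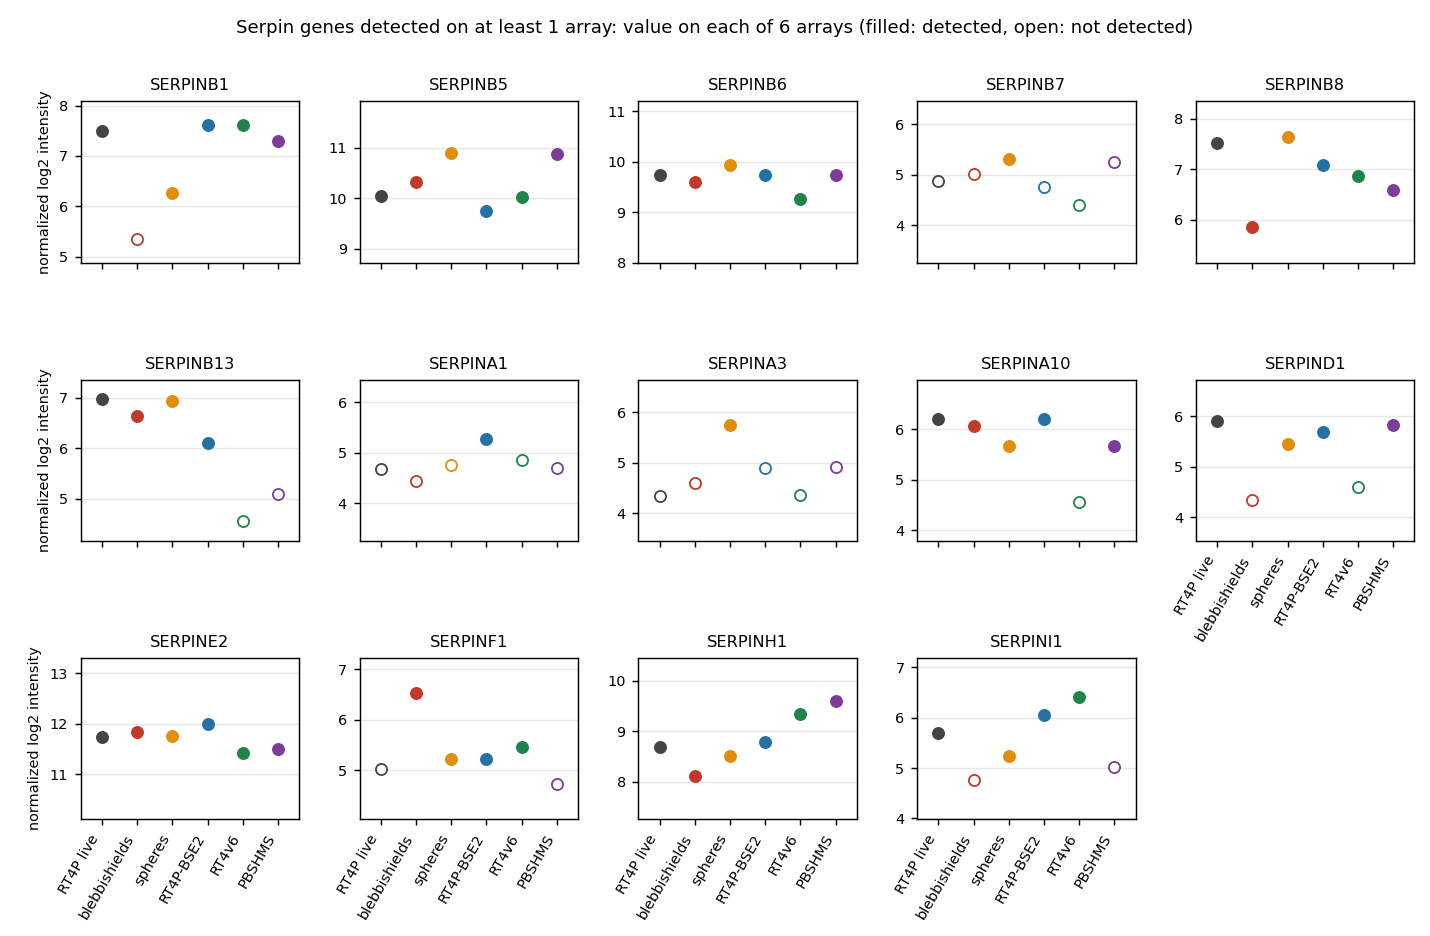
Normalized log2 intensity of each of the 14 detected serpin genes described (1 panel each) on the 6 arrays, 1 point per array, filled where detected and open where not. Panels span equal log2 ranges at different heights, so shapes compare but heights do not. SERPINB1 and SERPINB8 are lowest in blebbishields, and SERPINB13 is lowest in RT4v6 and PBSHMS.

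SERPINB1, the leukocyte elastase inhibitor, protects cells from neutrophil proteases. Its level was 7.49 in RT4P live cells, 7.62 in RT4P-BSE2, 7.62 in RT4v6 and 7.30 in PBSHMS, but 6.26 in spheres and 5.35, not detected, in blebbishields. The 4 live arrays lay within 0.32 of each other, and both post-apoptotic arrays lay below all of them. Against RT4P live cells it was at least 4.06-fold lower in blebbishields and 2.35-fold lower in spheres. In these bulk samples a change in RNA per cell cannot be told apart from a change in the share of cells that make it. The sphere difference of -1.23 was -0.73 without background correction. Among the leukocyte markers HCLS1 was 6.91-fold lower in blebbishields and 6.90-fold lower in spheres. ITGAM was at least 1.73-fold lower in blebbishields and 1.49-fold lower in spheres, while CD14 was at least 1.67-fold higher in blebbishields and at least 1.11-fold higher in spheres, and CD2 at least 1.08-fold higher in spheres. The log2 of the markers' summed level, undetected markers included, was 10.51 in RT4P live cells, 8.88 in blebbishields and 8.96 in spheres. In the derived lines it was 9.78 to 10.52. HCLS1 made up most of the sum in RT4P live cells and the derived lines. It did not in blebbishields or spheres, where it read 7.32 and 7.33. In each of RT4P live cells and blebbishields 2 of the 13 were detected, and in spheres 4, while PTPRC, CD3E and LYZ were detected on no array. The part of HCLS1-bearing cells in the result was not tested.

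SERPINB8, an intracellular inhibitor of furin-like proteases, was low in blebbishields but not in spheres. Its brighter probe read 7.52 in RT4P live cells, 5.86 in blebbishields, 7.64 in spheres, 7.09 in RT4P-BSE2, 6.87 in RT4v6 and 6.59 in PBSHMS. Blebbishields were 3.18-fold below RT4P live cells and spheres 3.43-fold above blebbishields, while spheres and RT4P live cells differed by 0.11. The blebbishield difference fell under 2-fold without background correction, at -0.94, and with the authors' processed values, at -0.89. The sphere difference from blebbishields fell to 0.97 with the authors' processed values. A second probe of the gene was detected on the other 5 arrays, at 7.44 in RT4P live cells, 7.48 in spheres, 6.71 in RT4P-BSE2, 6.67 in RT4v6 and 6.39 in PBSHMS, but not in blebbishields, so its difference there has no measured size. All 3 derived lines lay below RT4P live cells, under 2-fold by the brighter probe, with PBSHMS lowest at -0.94.

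SERPINB13, headpin, an inhibitor of cathepsins L and K in stratified epithelia, was lowest in RT4v6 and PBSHMS. It read 6.96 in RT4P live cells, 6.64 in blebbishields and 6.94 in spheres, and 6.09 in RT4P-BSE2. In RT4v6 it was 4.55 and in PBSHMS 5.10, both not detected. After quantile scaling the 3 samples of the parental line were highest and the 3 derived lines were all lower. The blebbishield value depended on the scaling. Against RT4P live cells its log2 difference was -0.33, but -0.92 with equal medians and -1.05 without scaling. The deposited signal in blebbishields, 135.2, was below the 154.3 of RT4P-BSE2. Relative to RT4P live cells SERPINB13 was at least 3.60-fold lower in RT4v6 and at least 3.26-fold lower in PBSHMS, with 100 of 14079 and 111 of 13676 genes differing by as much. In RT4P-BSE2 it was 1.83-fold lower, a log2 difference of -0.87 against a probe SD of 0.26. The deposited signals were 215.7 in RT4P live cells against 99.4 in RT4v6 and 112.4 in PBSHMS, and without background correction the bounds were -0.84 and -0.80.

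SERPINB5 and SERPINB6 were detected on all 6 arrays and were under 2-fold in the 6 comparisons. SERPINB5, maspin, a non-inhibitory serpin studied as a tumour suppressor, had levels of 10.05 in RT4P live cells, 10.33 in blebbishields, 10.90 in spheres, 9.74 in RT4P-BSE2, 10.02 in RT4v6 and 10.87 in PBSHMS. Spheres and PBSHMS were highest, 1.80-fold and 1.76-fold above RT4P live cells. SERPINB6, a broad intracellular inhibitor of serine proteases such as cathepsin G, ranged from 9.25 in RT4v6 to 9.94 in spheres. Without scaling between arrays, both passed 2-fold in spheres against blebbishields, SERPINB5 at 1.43 and SERPINB6 at 1.25. SERPINB7, megsin, read 5.32 in spheres, its only array of detection, and 4.40 to 5.25 on the others, so that the 2 comparisons that could be made give only lower bounds, of 0.21 against RT4P live cells and 0.00 against blebbishields.

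Among cathepsin genes, whose products clade B serpins bind, 5 of 7 were detected. CTSV, a cysteine cathepsin of epithelia and thymus, was 3.16-fold higher in blebbishields and 3.06-fold higher in spheres than in RT4P live cells, where it read 7.37. It was the only one at 2-fold in any comparison. Its blebbishield difference stayed at 2-fold in 7 of 9 alternatives, with a lowest value of 0.84, and its sphere difference in 9 of 9. CTSL, a target of SERPINB13, read 9.36 in RT4P live cells, 10.11 in blebbishields, 10.03 in spheres, 9.61 in RT4P-BSE2, 9.82 in RT4v6 and 9.43 in PBSHMS. None of 10 granule serine protease genes, the granzymes, elastase and cathepsin G among them, was detected on any array. Of 15 membrane-bound and kallikrein protease genes 7 were detected. PRSS8, prostasin, a membrane-anchored protease of epithelia, was lower by 2-fold or more than in RT4P live cells in 4 of 5 comparisons with them. It was lower by at least 4.78-fold in blebbishields, at least 6.60-fold in spheres, at least 6.11-fold in RT4v6 and 2.46-fold in PBSHMS. In RT4P-BSE2 it was 1.47-fold lower. TMPRSS4 was 2.12-fold lower in PBSHMS, and no gene of that list was 2-fold higher in any comparison.

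Plasma-type serpins were dim throughout. SERPINA10, the protein Z-dependent inhibitor of coagulation factor X, read 6.20 in RT4P live cells, 6.06 in blebbishields, 5.67 in spheres, 6.20 in RT4P-BSE2 and 5.67 in PBSHMS, but 4.56, not detected, in RT4v6. It was at least 2.12-fold lower in RT4v6 than in RT4P live cells, a bound that an offset of 50 took under 2-fold. SERPIND1, heparin cofactor II, an inhibitor of thrombin, read 5.91 in RT4P live cells, 5.45 in spheres, 5.68 in RT4P-BSE2 and 5.82 in PBSHMS, and was not detected in blebbishields or RT4v6. Both genes were thus detected in RT4P live cells and absent from the detected set in RT4v6. SERPINA3, alpha-1-antichymotrypsin, an acute phase protein, read 5.75 in spheres and 4.34 to 4.92 elsewhere. Its bound against RT4P live cells was 1.56-fold, and the unbounded log2 difference was 1.41.

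SERPINF1, the angiogenesis inhibitor PEDF, does not inhibit proteases. It read 6.53 in blebbishields, 5.45 in RT4v6, 5.23 in spheres and 5.23 in RT4P-BSE2, and was not detected in RT4P live cells, at 5.01, or PBSHMS, at 4.73. It was at least 2.67-fold higher in blebbishields than in RT4P live cells and 2.46-fold lower in spheres than in blebbishields. The deposited signals were close, 131.2 in blebbishields, 115.7 in RT4P live cells and 126.5 in spheres, and neither difference reached 2-fold with array medians equalised in place of quantiles, at 0.88 and -0.70, or without scaling, at 0.74 and -0.53.

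SERPINH1 assists collagen folding. It read 8.69 in RT4P live cells, 8.12 in blebbishields, 8.52 in spheres, 8.79 in RT4P-BSE2, 9.34 in RT4v6 and 9.60 in PBSHMS. PBSHMS and RT4v6 were highest and blebbishields lowest. PBSHMS was 1.87-fold above RT4P live cells and RT4v6 1.57-fold. The differences that involve blebbishields depended on the scaling. Against RT4P live cells the log2 difference was -0.57 after quantile scaling, -1.29 with equal medians and -1.43 without scaling, and for spheres against blebbishields it was 0.40, 1.17 and 1.34. Of 15 collagen and collagen folding genes, 9 were detected. COL1A1, COL1A2 and COL3A1, which encode fibrillar collagens, were detected on no array. PLOD2, a lysyl hydroxylase of collagen, was 9.96-fold higher in RT4P-BSE2 and 2.36-fold higher in PBSHMS than in RT4P live cells, and the prolyl hydroxylase gene P4HA2 2.04-fold higher in RT4P-BSE2. In blebbishields P3H1 was 2.46-fold higher and CRTAP, its partner in prolyl hydroxylation, 2.47-fold lower. CRTAP was also 2.22-fold lower in spheres, where P4HA1 was 2.07-fold lower. Over the alternatives, PLOD2 in RT4P-BSE2 and CRTAP in blebbishields were at 2-fold in 9 of 9, CRTAP in spheres in 7, PLOD2 in PBSHMS in 6, P4HA2 in 5, and P3H1 and P4HA1 in 4. No gene of this list was at 2-fold in RT4v6 or in spheres against blebbishields.

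Counted over each comparison, few of the serpins described passed 2-fold, and the counts are set beside the share of all genes that did. A gene entered where it was detected on at least 1 of the 2 arrays, so the genes counted are not all members. In blebbishields against RT4P live cells 11 serpins were measured, 7 of them on both arrays. SERPINF1 was higher, with 7.10% of 13745 genes higher, and SERPINB1 and SERPINB8 were lower, with 4.75% of genes lower and 11.9% in either direction. In spheres against RT4P live cells 13 were measured, with 0 higher (3.00% of 14569 genes) and SERPINB1 lower (3.31%), or 6.31% in either direction. Spheres against blebbishields also had 13, with SERPINB8 higher (3.03% of 14199 genes) and SERPINF1 lower (6.01%), or 9.04% in either direction.

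Among the derived lines, RT4P-BSE2 had 12 of the serpins described measured against RT4P live cells, with 0 higher where 1.31% of 14290 genes were, and 0 lower where 0.273% were, or 1.58% in either direction. RT4v6 had 11 measured, with 0 higher (1.14% of 14079 genes), and SERPINB13 and SERPINA10 were lower (2.41%), with 3.55% of genes at 2-fold in all. In PBSHMS 10 were measured, with 0 higher (1.81% of 13676 genes) and SERPINB13 lower (2.03%), and 3.84% of genes were at 2-fold in all. These 5 comparisons with RT4P live cells share its 1 array, so an error on that array would enter all of them. Counts of 0 to 2 members are too small to set the family apart from the background.

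Clade B and the other clades did not part in one direction. The median log2 difference of clade B genes minus that of the others was -0.14 in blebbishields against RT4P live cells, 0.33 in spheres against RT4P live cells and 0.46 in spheres against blebbishields. For the derived lines against RT4P live cells it was -0.43 in RT4P-BSE2, -0.51 in RT4v6 and 0.05 in PBSHMS. In RT4v6 the gap lay between a median of -0.49 over 5 clade B genes and one of 0.02 over 6 others, of which 1 and 3 were bounds, and it ranged from -0.91 to -0.10 over the settings tried. In RT4P-BSE2 the medians were -0.31 over 5 clade B genes and 0.12 over 7 others, of which 0 and 2 were bounds. In blebbishields and in spheres against RT4P live cells the gap changed sign between settings, over -0.30 to 0.21 and -0.01 to 0.57. In spheres against blebbishields it ran from 0.32 to 0.76, and in RT4P-BSE2 from -0.47 to -0.09, without a change of sign.

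**Figure D2:**
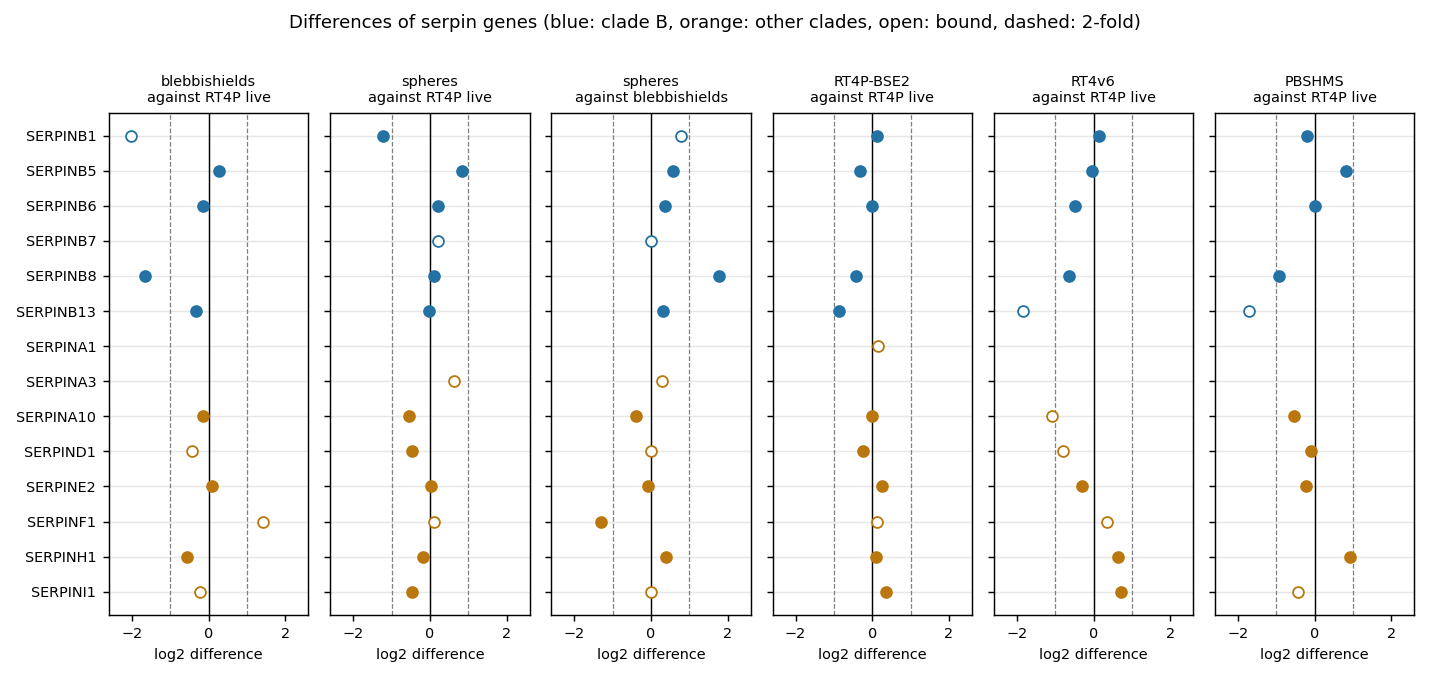
Log2 difference (x axis, group minus reference) of each serpin gene measured in each of the 6 comparisons, clade B in blue and other clades in orange, with open points for bounds and dashed lines at 2-fold. SERPINB1 lies left of the 2-fold line in blebbishields and spheres against RT4P live cells and SERPINB13 left of it in RT4v6 and PBSHMS. Clade B and other genes overlap in every panel.

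Without scaling between arrays, the median of all genes was -0.70 in blebbishields against RT4P live cells and 0.76 in spheres against blebbishields, so differences that involve the blebbishield array are relative to that shift. SERPINB1 in blebbishields was at 2-fold under each of the 8 alternatives that gave a value. The other 8 differences at 2-fold were not, and all 9 kept their sign under the alternatives that gave a value.

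**Figure D3:**
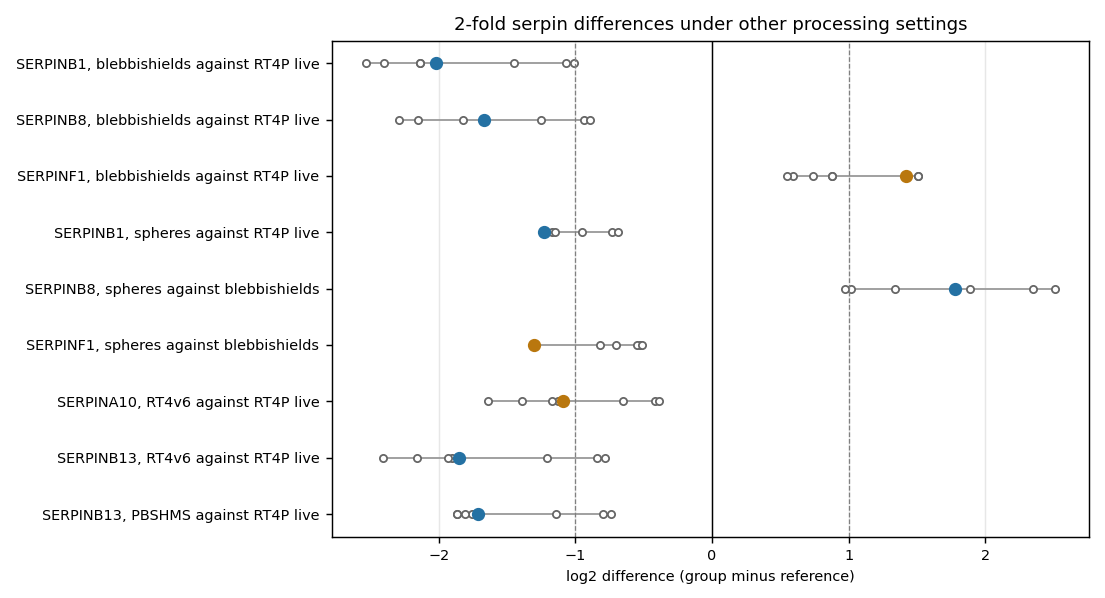
Each of the 9 serpin differences at 2-fold or more (large points, blue for clade B and orange for others) with its value under the other processing settings (small open points) on a log2 axis, dashed lines at 2-fold. SERPINB1 in blebbishields stays between -2.53 and -1.01, while SERPINF1 in blebbishields runs from 0.55 to 1.51 and falls inside the 2-fold line.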

How the data were processed

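RNA of 6 samples was measured on 6 Illumina HumanHT-12 version 4 arrays, 1 per group, per the labels. The table deposited by the authors without normalization gives a signal intensity for each of 47322 probes. Beside each intensity stands a detection p-value, per the file headers. GenomeStudio, of unstated version, appears among the tools in the submitters' processing notes. A second deposited table holds the authors' processed intensity on a linear scale with equal quantiles, and served as an alternative. The function neqc (limma 3.58.1, R 4.3.3) was run on all 6 arrays: normexp background correction, with control spread estimated from detection p-values, then an offset of 16, quantile scaling and log2. Genes were compared where detection was under 0.01 on either array of a pair, each through its brightest detected probe over all 6 arrays. Precision is limited by the number of arrays, and differences were not tested. The probe SD divides the spread (SD) of the gap between a gene's 2 brightest probes, each detected on 1 or both arrays, by the root of 2, and transcript differences enter it.

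Every serpin at 2-fold was named. Apart from genes whose levels are given beside a serpin, other genes came only from 6 lists of proteases, inhibitors and collagen partners. From each list and comparison the 4 largest differences at 2-fold were named, with SLPI and CST4 in PBSHMS added. Members and lists were chosen with earlier results of these data known. Of 35 serpin names 34 are current RefSeq symbols (GRCh38.p14), and other names were updated where 1 gene lists them. Promoter sequences are from RefSeq, and none was held for SERPINF1. The array also holds 1 serpin gene that is not reported here and is left out of the serpin counts, medians and figures. There were 9 alternatives: 2 other scalings, no background correction, an offset of 50, 3 other detection filters, the mean over probes and the authors' values. The steps were tested on simulated data. Figures used matplotlib 3.10.9 in Python 3.11.15.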

Additional observations from a re-analysis of the deposited data

How the results depend on the processing

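No paired analysis was possible because each group has 1 array. Leaving out a replicate was not possible for the same reason, and single arrays, dim probes and the offset limit every value. Over 9 alternatives, 610 values of single serpin differences were computed, 513 moved by less than the probe SD, 97 by more, and 0 of the 2-fold ones turned sign. Some of these values could not move, so the tally overstates steadiness. Detection filters leave a difference measured on both arrays unchanged, and detection on both arrays had 50 of 50 within the probe SD. The mean over probes alters only SERPINB8, the only serpin with 2 detected probes, and had 70 of 70 within it. Counts of the serpins described at 2-fold, higher then lower, were 1 and 2 in blebbishields, 0 and 1 in spheres, 1 and 1 in spheres against blebbishields, 0 and 0 in RT4P-BSE2, 0 and 2 in RT4v6, and 0 and 1 in PBSHMS.

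The higher count in blebbishields became 0 with arrays shifted to equal medians, without between-array normalization, without background correction, with an offset of 50, with detection on both arrays and with the authors' values. The lower count there became 3 with equal medians and without a detection filter, and 4 without between-array normalization. It became 1 without background correction, with detection on both arrays and with the authors' values. In spheres the higher count became 1 without a detection filter, and the lower 0 without background correction, with an offset of 50 and with the authors' values. For spheres against blebbishields the higher count became 5 with equal medians, 6 without between-array normalization, 3 without a detection filter and 0 with the authors' values. The lower count there became 0 with equal medians, without between-array normalization, without background correction, with an offset of 50 and with the authors' values. In RT4v6 the lower count became 0 without background correction, with detection on both arrays and with the authors' values, and 1 with an offset of 50. Settings that raised the RT4v6 count are not all listed. Without a detection filter SERPIND1 also passed 2-fold there, at -1.32. In PBSHMS the lower count became 2 without between-array normalization and 0 without background correction, with detection on both arrays and with the authors' values.

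The gap between clade B and other medians became, without a detection filter, -0.01 in spheres against RT4P live cells, -0.09 in RT4P-BSE2 and -0.10 in RT4v6. In RT4v6 it was -0.91 with detection on both arrays. Values without background correction and the authors' values keep the background in the signal, and detection on both arrays drops genes known only by a bound. The cause of the other shifts was not tested. Over all genes, the share of 2-fold differences that were higher moved from 59.9% to 9.3% in blebbishields, from 33.5% to 95.8% in spheres against blebbishields, from 47.6% to 59.1% in spheres and from 47.0% to 31.4% in PBSHMS without between-array normalization. In RT4P-BSE2 it moved from 82.7% to 95.2% without background correction.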

Other observations

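Protease inhibitors of other families were measured beside the serpins, with 17 of 22 listed genes detected. TIMP3, a matrix-bound inhibitor of metalloproteinases, read 6.63 in RT4P live cells and was higher in blebbishields (5.02-fold), spheres (9.48-fold), RT4v6 (2.43-fold) and PBSHMS (11.4-fold). TIMP1 was 2.50-fold lower in blebbishields and in spheres, and TIMP2 3.57-fold higher in PBSHMS. SPINK1, a Kazal-type trypsin inhibitor, read 10.80 in RT4P live cells, 7.05 in blebbishields, 7.72 in spheres, 11.91 in RT4P-BSE2, 6.24 in RT4v6 and 12.69 in PBSHMS. It was thus 23.6-fold lower in RT4v6 and 3.70-fold higher in PBSHMS than in RT4P live cells.

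SLPI, the secretory leukocyte protease inhibitor, was 2.35-fold lower in RT4P-BSE2, at least 3.02-fold in RT4v6 and at least 2.36-fold in blebbishields. CSTA, an inhibitor of cysteine cathepsins in squamous epithelia, was at least 3.29-fold lower in PBSHMS and 2.07-fold higher in spheres than in blebbishields. CST4, a salivary-type cystatin, was 2.64-fold higher in RT4v6. In RT4v6 1 further gene of the list was at 2-fold. In PBSHMS 3 further genes were, among them SLPI, at least 2.74-fold lower, and CST4, 2.29-fold higher than in RT4P live cells. Over the alternative settings TIMP3 stayed at 2-fold in 9 of 9 in blebbishields, spheres and PBSHMS and in 7 of 9 in RT4v6, and SPINK1 in 9 of 9 in RT4v6 and PBSHMS. SLPI in RT4P-BSE2 stayed there in 6 of 9, with a smallest difference of -0.53.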
